A study of Mus musculus with 5 samples.

Results

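The folding of the locus of Sonic hedgehog (Shh) in the wild-type limb bud was described from 1 contact map, the series-level map named wild type, out of 6 maps in the series. The members were all pairs of 5 kb bins of chr5:27480001-30270000 (mm10), 155961 pairs among 558 bins over 2790 kb. Its name gives capture Hi-C on wild-type limb buds of E10.5 mouse embryos, and no treatment or further allele. It belongs to no listed sample, and the strain, the number of pooled embryos and the library were not described in the sources used here. The series type includes third-party reanalysis, so the library may have been made in another study. The other 5 maps, of mutant genotypes, were not used.

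Capture Hi-C joins stretches of DNA that lie close together in the nucleus, enriches one stretch of the genome with probes, and counts the joined pairs by sequencing. Chromosomes fold into topologically associating domains, inside which stretches meet more often than across the borders, and such domains are commonly formed by cohesin, which extrudes loops of DNA until it meets bound CTCF. Shh encodes the secreted signal of the zone of polarizing activity, which patterns the limb from thumb to little finger. Its limb enhancer, the ZRS, lies far away in an intron of Lmbr1, at the other end of a stretch with few genes. En2 and Mnx1, which lie beyond the opposite ends of the Shh domain, encode homeobox transcription factors of the developing midbrain and hindbrain and of motor neurons.

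The 3 promoters below are shown because Mnx1 is an anchor of both of the most focal contacts, and because the starts of Ube3c, a ubiquitin ligase, and Htr5a, a serotonin receptor, lay nearest to domain borders. They are RefSeq sequences on GRCm38.p6 (mm10), 250 bases before to 50 after the start, 5′ to 3′ on the strand of the gene, with every CpG in capitals. They lie at chr5:29478421-29478720 (Mnx1, minus strand), chr5:29568992-29569291 (Ube3c, plus strand) and chr5:27841697-27841996 (Htr5a, plus strand).
Mnx1: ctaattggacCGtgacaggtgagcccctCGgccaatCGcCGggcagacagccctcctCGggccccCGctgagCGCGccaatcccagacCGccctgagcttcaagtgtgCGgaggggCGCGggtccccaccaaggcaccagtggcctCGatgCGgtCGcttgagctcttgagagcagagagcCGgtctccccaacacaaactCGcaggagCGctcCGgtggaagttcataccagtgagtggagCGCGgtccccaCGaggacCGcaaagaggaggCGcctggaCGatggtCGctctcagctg
Ube3c: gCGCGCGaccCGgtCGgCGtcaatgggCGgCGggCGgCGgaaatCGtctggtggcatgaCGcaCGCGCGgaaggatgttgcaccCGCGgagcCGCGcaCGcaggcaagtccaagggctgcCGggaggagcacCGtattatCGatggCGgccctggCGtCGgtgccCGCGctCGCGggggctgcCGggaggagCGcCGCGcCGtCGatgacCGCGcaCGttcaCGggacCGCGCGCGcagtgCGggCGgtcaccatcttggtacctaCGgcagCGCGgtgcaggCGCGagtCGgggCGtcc
Htr5a: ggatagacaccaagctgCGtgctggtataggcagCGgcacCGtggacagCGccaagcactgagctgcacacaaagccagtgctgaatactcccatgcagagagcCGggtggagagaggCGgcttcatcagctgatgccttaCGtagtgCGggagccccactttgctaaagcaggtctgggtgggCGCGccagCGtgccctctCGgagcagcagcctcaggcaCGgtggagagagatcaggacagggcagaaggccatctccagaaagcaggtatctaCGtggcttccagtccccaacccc

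The Mnx1 promoter held 26 CpG, the Ube3c promoter 53 and the Htr5a promoter 14, against a median of 7 over 32851 mouse promoters of the same length. As many CpG as in Mnx1 occurred in 16.9% of all promoters, as many as in Ube3c in 0.451%, and as many as in Htr5a in 36.3%. Entries for Shh, En2 and Adgrf3 were not in the table used. Proteins bound to the DNA were not measured here.

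The map held 1646616 contacts, of which 1400713 joined different bins. A usable bin had a median of 5434 contacts, from 266 to 14757, and 7 bins were left out for few or no contacts. Of the pairs of usable bins, 18.2% had 0 contacts. With 1 library there was no test and no spread between embryos. The 95% intervals given state counting error only, and pairs of a sequencing library need not be independent molecules. Of the genes set side by side below, the 5 bins of Shh held 3602 to 10049 contacts with a median of 5434, the 4 bins of En2 6244 to 9973 with a median of 7296, and the 4 bins of Mnx1 5721 to 7278 with a median of 6367.

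**Figure D1:**
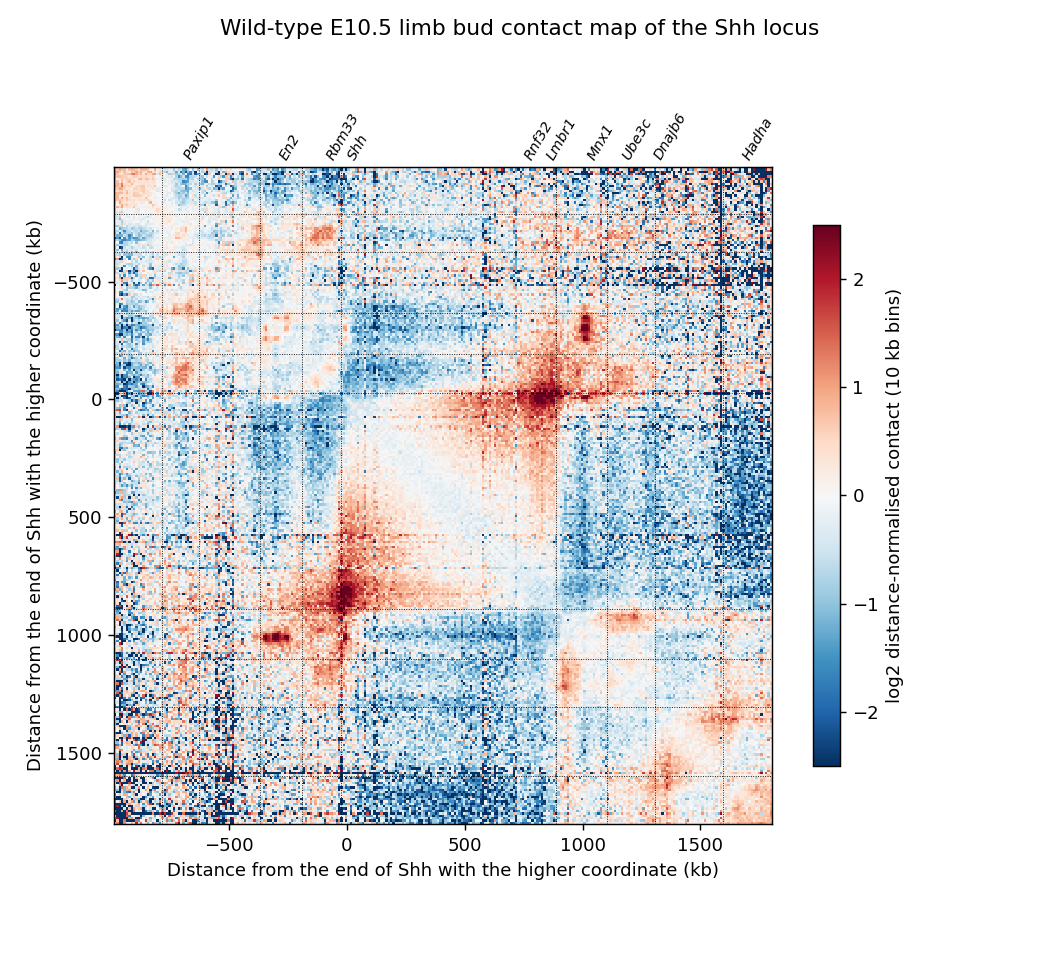
Contact map in 10 kb bins, with both axes giving the distance in kb from the end of Shh with the higher coordinate. Colour gives the log2 distance-normalised contact and dotted lines the 9 domain borders, and spots of En2-Mnx1 (13.4 times the average in 5 kb bins) and Shh-Mnx1 (6.26 times) lie off the corner of the Shh domain.

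Contact fell with the distance between bins over most of the range. A pair of bins 10 kb apart had 177 contacts on average. At 100 kb this was 21.5 contacts, at 500 kb 5.81, at 1000 kb 3.24 and at 2000 kb 1.02. In between it rose for a stretch, with 2.71 contacts per pair at 1105 kb and 3.47 at 1305 kb. Contacts within 50 kb, those inside a single bin included, made up 49.6% of all contacts, and contacts beyond 1000 kb made up 7.28%. On log-log axes the slope of the balanced signal was -0.91 between 10 and 100 kb, -0.82 between 100 and 500 kb and -0.77 between 500 and 1500 kb.

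The Shh domain departed from this decay at long range. Between 100 and 500 kb its slope was -0.45, against -0.82 inside the flank that holds En2 and -0.84 inside the flank that holds Mnx1. Between 10 and 100 kb the 3 slopes were close, at -0.87 in the Shh domain, -0.92 in the En2-side flank and -0.89 in the Mnx1-side flank. At 500 kb the mean balanced signal per bin pair was 9.87 inside the Shh domain, 5.48 inside the En2-side flank and 6.84 inside the Mnx1-side flank. Contact within the Shh domain was thus flatter with distance than within either flank, while at short range it was not higher. Each flank holds several of the domains described below, none longer than 290 kb. Flank pairs further apart than that, such as those at 500 kb, cross a border between domains, while pairs of the Shh domain do not.

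**Figure D2:**
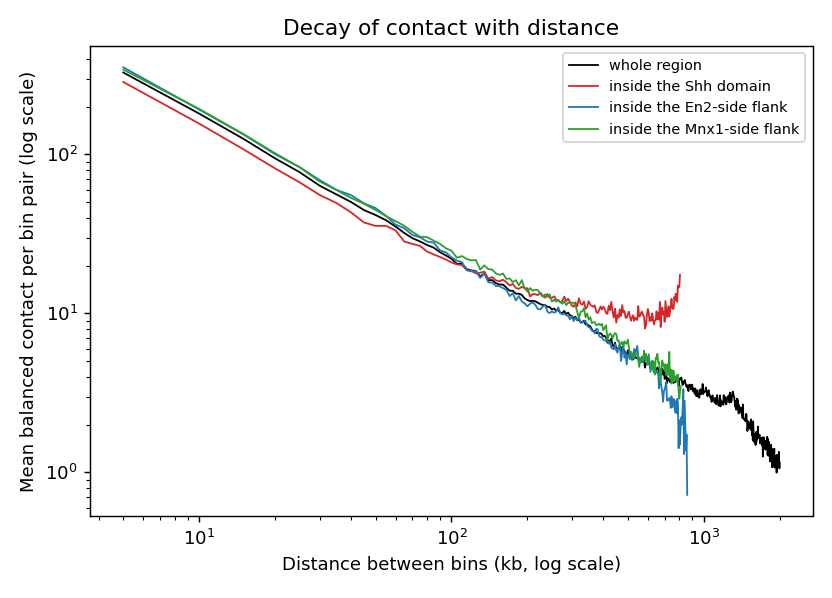
Mean balanced contact signal per bin pair (log axis) against the distance between bins in kb (log axis), for the Shh domain, both flanks and the whole region. The Shh domain lies lowest at short range and highest at 500 kb, where it reaches 9.87 against 5.48 and 6.84 in the flanks.

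In what follows each value is relative to the mean of the region's usable bin pairs with that separation, so that 1 is the average of the region, the Shh domain included. Insulation is the log2 of this distance-normalised contact in a square of 100 kb by 100 kb across a point, and a low value marks a point that few contacts cross. Its minima with a prominence of 0.2 or more gave 9 borders and 10 domains, of which the first and last are cut by the ends of the region.

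The borders of the Shh domain stood far below the other 7. The deeper one, at 28440001, lay 16.8 kb from Shh, between Shh and the RNA-binding motif gene Rbm33. Its insulation was -1.07 (interval -1.14 to -0.997), so contact across it was 0.478 of the average, from 4167 contacts. Intervals from 28430001 to 28465001, a stretch that reaches into Shh, overlap this one, so its place within that stretch was not resolved. The other, at 29355001, lay inside Lmbr1, 23.4 kb from the start of that gene, with an insulation of -0.83 (-0.87 to -0.78) and a contact across it of 0.564. This minimum was flat. Intervals from 29335001 to 29385001 overlap that of this border, with values from -0.83 to -0.74, and the bin at 29350001 had no contacts. On which side of the border the start of Lmbr1 lies was therefore not resolved.

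The other 7 borders were shallower, from -0.38 to -0.04. On the En2 side they lay at 27680001 (insulation -0.24), 60.1 kb from Paxip1, at 27840001 (-0.25), at 28100001 (-0.38), 21.3 kb from Insig1 and inside the non-coding gene Gm35223, and at 28275001 (-0.30), between Cnpy1 and Rbm33. On the Mnx1 side their lowest points lay at 29570001 (-0.11), 29775001 (-0.31) and 30065001 (-0.04). The second of these fell in the co-chaperone gene Dnajb6 and the third in the thymidylate synthase gene Tyms. The lowest point of the border at 27840001 lay 1.95 kb from the start of Htr5a. That of the border at 29570001 lay 0.759 kb from the start of Ube3c, both less than 1 bin away. Intervals from 27810001 to 27855001 overlap that of the first, and those from 29560001 to 29575001 that of the second. These distances were therefore not resolved to 1 bin. Intervals from 29735001 to 29800001 overlap that of the border at 29775001, and those from 30040001 to 30085001 that of the border at 30065001. These stretches reach past the ends of Dnajb6 and Tyms, so a place inside either gene was not resolved. Intervals from 28250001 to 28305001 overlap that of the border at 28275001. The last border's interval, -0.09 to 0.004, includes the average, and it was called for its prominence of 0.56 above its surroundings. With squares of 200 kb 3 borders were called.

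**Figure D3:**
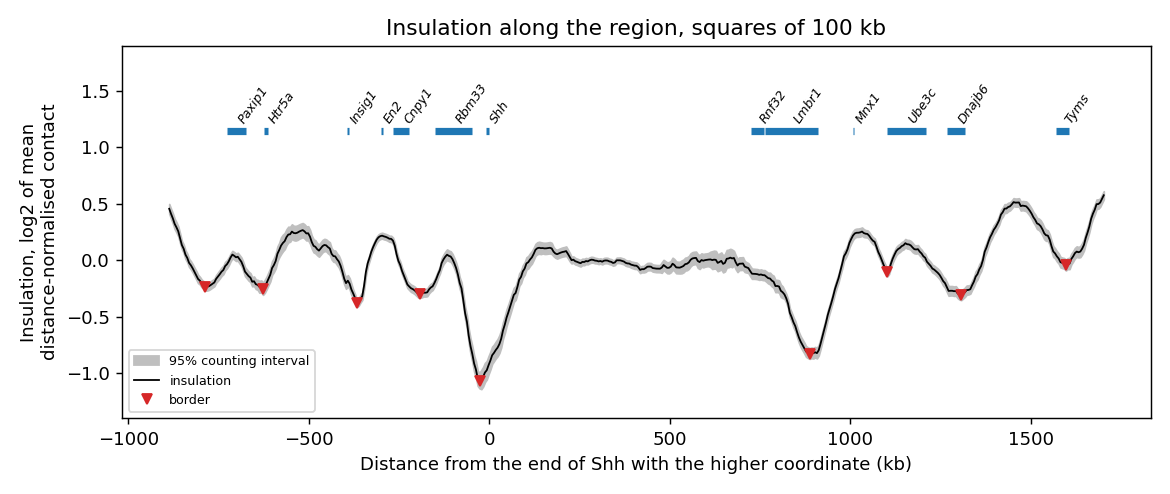
Insulation (log2 mean distance-normalised contact in 100 kb squares, with its 95% counting interval) along the region, with genes as bars and the 9 borders as triangles. The minima beside Shh (-1.07) and inside Lmbr1 (-0.83) stand below the other 7.

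The Shh domain, chr5:28440001-29355000, spanned 915 kb and was 3 times or more as long as each of the other domains, which spanned 160 to 290 kb. With the borders placed at their lowest points, it held Shh, the RING finger gene Rnf32 and most of Lmbr1. Contact inside it averaged 1.42 (interval 1.41 to 1.43, 360645 contacts). Averages of the domains are not at matched distances, since only the Shh domain holds pairs more than 290 kb apart. The last domain, cut by the end of the region, was as high at 1.43 (1.41 to 1.45), and the first, also cut, had 1.38. The domain of the cytokine gene Il6 and Tyms had 1.34. The domain of Paxip1, which acts in the DNA damage response, had 1.04, that of Htr5a and the sterol regulator Insig1 1.14, and that of En2 and Cnpy1 1.12. The domain of Rbm33 had 1.02, that of Mnx1 and the nucleolar protein gene Nom1 1.01, and that of Ube3c and Dnajb6 1.02.

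Contact inside the Shh domain was concentrated at its long distances. Between bins 10 to 50 kb apart it was 0.863, against 1.08 inside the flanks. At 100 to 200 kb it was 1.04 in the Shh domain and 1.06 in the flanks, and at 200 to 400 kb 1.24 in the Shh domain and 1.06 in the flanks. At 400 to 600 kb it was 1.71 inside the Shh domain and 1.04 inside the flanks. At 600 to 900 kb it was 2.81 (2.74 to 2.88, 19214 contacts) inside the Shh domain and 0.914 inside the flanks. Flank pairs more than 290 kb apart cross a border between domains. The longest distances inside the Shh domain join its ends, where Shh and Lmbr1 lie.

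Inside the Shh domain there was little subdivision. With squares of 50 kb and a prominence of 0.1, 2 shallow sub-borders were called, at 28900001 (insulation -0.20, prominence 0.11) and 28995001 (-0.22, prominence 0.22), both inside the non-coding gene Gm35688. They cut the domain into stretches of 460, 95 and 360 kb with contacts of 1.06, 0.867 and 0.979 inside each. Contact between the first and the last stretch, 1.89 (1.87 to 1.92, 72427 contacts), was higher than contact inside either. Neighbouring stretches had 1.37 and 1.12 with each other. Averages inside and between stretches are not at matched distances, and contact inside the Shh domain rose with distance. It was 0.863 at 10 to 50 kb and 2.81 at 600 to 900 kb. Whether the first and last stretch met more than other pairs at equal distance was not tested. The sub-borders depended on the threshold, with 9 called at a prominence of 0.05 and 1 at 0.2.

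The Shh domain met the Mnx1-side flank less often than the En2-side flank. Contact between the Shh domain and the Mnx1-side flank was 0.674 (0.667 to 0.682), and that between the Shh domain and the En2-side flank 0.955 (0.946 to 0.964). The 2 flanks met each other over the Shh domain at 1.12 (1.11 to 1.14). Of the 45 pairs of domains, the highest contact was that of the En2 and Cnpy1 domain with the Mnx1 and Nom1 domain, at 2.01 (1.97 to 2.06, 10798 contacts). The Rbm33 domain and the Mnx1 and Nom1 domain had 1.95 (8593 contacts). The lowest was that of the Shh domain with the last domain, which holds Hadha and Hadhb, the subunits of the mitochondrial trifunctional protein, at 0.474 (0.460 to 0.489).

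Contact between genes was measured between windows of each gene body and 1 bin either side, for 192 pairs of the 21 protein-coding genes of the region. A mean contact of 2 or more was reached by 13 pairs, 6.77% of all. The median pair was at 1.03, and the interval lay above 1 in 70 pairs and below 1 in 39. Of the 13 pairs, those of Speer4b, a member of a multigene family, with Tyms and Il6 rested on 7 and 9 contacts, and their intervals include 1. The list of developmental genes, Shh, En2 and Mnx1, was chosen with earlier results known, and its counts are a description. Of its 3 pairs 2 reached a contact of 2, and their median was 5.16. Of the 51 pairs with 1 of these genes 6 did, with a median of 0.989, and of the 138 pairs with none 5 did, with a median of 1.04.

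En2 and Mnx1 had the highest contact of all gene pairs. Their windows, 1302 kb apart, met in 718 contacts where the average at that distance gave 68.8, a contact of 10.7 (interval 9.97 to 11.6). In bins of 10 kb it was 6.88, and with unlisted bin pairs left out 8.50. All 16 bin pairs of the 2 gene bodies and the bins beside them were at 2 or more, from 4.35, with a median of 10.8. The highest single bin pair, 28165001 with 29470001, reached 19.2 from 79 contacts. From the 3 by 3 bins centred on the genes, contact dropped to 4.37 at an offset of 15 kb and 1.53 at 100 kb, against 13.4 at 5 kb.

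Shh and Mnx1, 1007 kb apart, met in 373 contacts where the average gave 72.8, a contact of 5.16 (4.62 to 5.75). Of their 20 bin pairs 19 were at 2 or more, with a median of 5.19. The peak, at 9.15, rested on 20 contacts. Around the pair, contact was 6.12 at an offset of 5 kb, 2.78 at 15 kb and 1.72 at 100 kb. With the borders placed at their lowest points, this spot joined a gene inside the Shh domain with one outside it. The Shh domain as a whole nevertheless met the Mnx1-side flank below the average.

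En2 and Shh, 284.7 kb apart, had a lower contact of 1.80 (1.63 to 1.99, 443 contacts). Of their 20 bin pairs 7 were at 2 or more, with a median of 1.62, and the highest reached 3.15 from 27 contacts. Around the pair, contact was 2.06 at 5 kb, 1.16 at 15 kb and 0.633 at 100 kb. The spot therefore stood on surroundings below the average, where the border beside Shh lies between the genes. The order of the 3 pairs, En2-Mnx1, Shh-Mnx1 and En2-Shh, holds beyond counting error, since their intervals do not overlap.

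**Figure D4:**
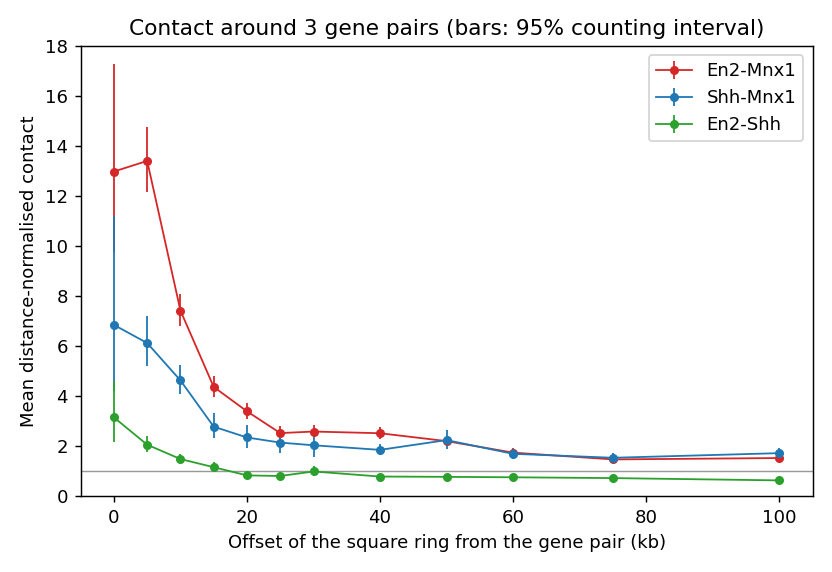
Mean distance-normalised contact in square rings around 3 gene pairs against the offset in kb from the pair, with 95% counting intervals. Contact drops within 20 kb in each, reaching 1.53 for En2-Mnx1, 1.72 for Shh-Mnx1 and 0.633 for En2-Shh at 100 kb.

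Shh also had high contact with the genes at the other end of its domain. Shh and Lmbr1 had a contact of 5.57 (5.35 to 5.80, 3193 contacts where the average gave 590). Seen from Shh in windows of 15 kb, the highest contact, 8.20 (7.51 to 8.97, 592 contacts), was at chr5:29270001-29285000 and a second high, 7.01 (6.23 to 7.88), at chr5:29325001-29340000, both in Lmbr1. Between them contact was lowest, of 6 windows, at chr5:29305001-29320000, with 5.57 (4.93 to 6.30). This interval overlaps that of the second high, so a dip between 2 separate highs was not resolved. Shh and Rnf32 had 3.68 (3.43 to 3.96), and Shh and Nom1, beyond the border, 2.65 (2.38 to 2.96). The ratio of the 3 by 3 bins to the ring around them was 1.64 for Shh-Lmbr1, 1.46 for Shh-Rnf32 and 1.69 for Shh-Nom1. Contact inside the Shh domain at 600 to 900 kb averaged 2.81, and Shh and Rnf32 lie 725.6 kb apart. The windows of Rnf32 and Lmbr1 adjoin and share bins, so their values are not independent. Which of these windows holds the ZRS was not analysed here, since introns were not annotated in the table used.

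Other gene pairs also reached a contact above 2. Cnpy1 and Mnx1 had 3.22 (2.95 to 3.51, 583 contacts), but their starts showed no spot of their own, at 0.775 of the surrounding ring. Rbm33 met Lmbr1 at 2.59 (2.51 to 2.66) and Nom1 at 2.32 (1512 contacts) across 1 and both borders of the Shh domain. En2 and Nom1 had 2.31 (2.05 to 2.60, 294 contacts). Insig1 and Mnx1 had 2.16 (1.76 to 2.64) from 97 contacts. Paxip1 and Rbm33, both in the En2-side flank, had 2.04 (3358 contacts). The ratio of the 3 by 3 bins to the ring was 0.965 for Rbm33-Lmbr1, 1.19 for Rbm33-Nom1 and 1.12 for En2-Nom1. It was 1.53 for Insig1-Mnx1 and 1.48 for Paxip1-Rbm33. Mnx1 as a viewpoint had a further high of 4.08 (3.38 to 4.94, 131 contacts) at chr5:28105001-28120000, which holds no protein-coding gene and lies in Gm35223, just past a border.

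Low pairs were read among the 13 genes between Paxip1 and Dnajb6 (Paxip1, Htr5a, Insig1, En2, Cnpy1, Rbm33, Shh, Rnf32, Lmbr1, Nom1, Mnx1, Ube3c and Dnajb6), a list chosen with earlier results known. The lowest 4 of their 72 pairs set Lmbr1 or Rnf32 against genes of the Mnx1-side flank. Lmbr1 and Mnx1, 95.4 kb apart, had 0.504 (0.472 to 0.538) of the average from 1069 contacts. Rnf32 had 0.509 (0.453 to 0.573) with Mnx1, 0.541 (0.499 to 0.587) with Nom1 and 0.675 (0.616 to 0.739) with Dnajb6. In the 3 by 3 bins at the gene starts Lmbr1 and Mnx1 had 0.812 (0.683 to 0.964) and Rnf32 and Mnx1 0.689 (0.553 to 0.859). There Rnf32 had 0.842 (0.701 to 1.01) with Nom1 and 0.743 (0.503 to 1.10) with Dnajb6, and both of these intervals include the average. Over all 192 pairs 8 were below Lmbr1-Mnx1, 7 of them pairs of Speer4b, and these 8 rested on 0 to 53 contacts each.

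**Figure D5:**
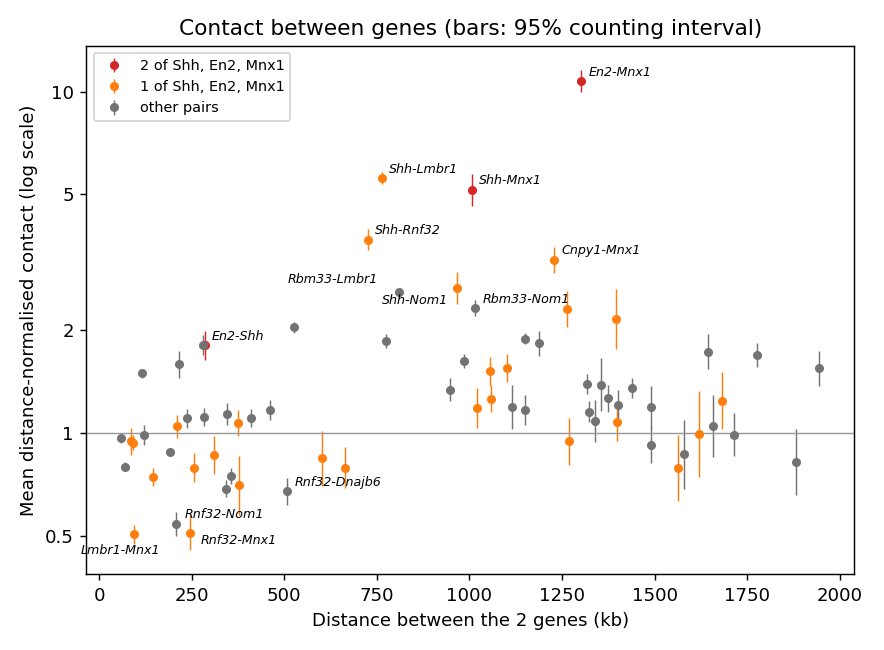
Mean distance-normalised contact (log axis, with 95% counting intervals) against the distance in kb between genes, for the 72 pairs of 13 genes. En2-Mnx1 (10.7) lies highest of all although 1302 kb separate the genes, and Lmbr1-Mnx1 (0.504) lowest of these 72.

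A search over the map asked where else contact was focal. A loop was called where 3 by 3 bins, 50 to 2000 kb apart, had a contact of 2 or more, 1.5 times or more that of the ring around them, and 30 contacts or more. This rule was passed by 558 of 132378 windows, 0.422%, which joined into 102 loops. A contact of 2 alone was reached by 4.69% of the windows, and a ratio of 1.5 to the ring by 2.5% of those with 30 contacts or more. In simulated maps the rule also called centres where no loop had been placed. In 36 loops the lower bound of the contact was also 2 or more, a bound added after the values had been seen, and 10 of these had 2 times or more the contact of their ring.

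The highest ratio to the ring of all loops was that of En2 and Mnx1, at 4.93, followed by Shh and Mnx1 at 3.05. En2 and Shh had the sixth highest, 2.63. With unbalanced contacts these loops ranked 4, 5 and 8. With a minimum contact of 3 in the centre and a minimum ratio of 2, Shh-Mnx1 ranked 3. The En2-Shh loop, with a contact of 2.30, was then not called. Of the 10 highest ratios, 6 rested on 30 to 52 contacts with a lower bound under 2, and both anchors held a protein-coding gene in none of these 6. Htr5a at 27850001 met 28545001 at 2.86, and 27875001 met 29520001 at 2.97. The stretch at 28030001 met 29110001 at 2.47, and 27665001 met 27980001 at 2.23. Inside the Shh domain 28515001 met 29175001 at 5.48, with a wide interval of 1.64 to 18.3. Rbm33 at 28355001 met 29040001 at 2.30. The seventh joined a stretch at 27805001 with Lmbr1 at 29315001, with a contact of 3.42 (2.26 to 5.18) from 40 contacts.

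A further 6 loops met both added conditions. The stretches at 29385001, just past Lmbr1, and 29685001, just past Ube3c, had a contact of 3.43 (3.09 to 3.81, 417 contacts) without a protein-coding gene at either anchor. From 28120001, near the border at 28100001, loops ran to En2, with 2.29 (2.15 to 2.45, 1107 contacts), and to Cnpy1, with 2.35 (2.12 to 2.60, 501 contacts). Rbm33 was an anchor of 2, with 2.82 (2.32 to 3.41) to Rnf32 and 2.70 (2.02 to 3.61) to Dnajb6. Paxip1 and Nom1, 1665 kb apart, had 2.97 (2.21 to 3.98) from 62 contacts. The loop of Shh with Lmbr1 at 29285001 had a contact of 9.54 (8.03 to 11.3, 248 contacts), against 4.85 in the ring around it, a ratio of 1.97.

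Of the 36 loops, 17 lay within a domain, 13 of them within the Shh domain, and 19 joined different domains. The share of all tested windows that lay within each domain was not counted. Contact inside the Shh domain at 600 to 900 kb averaged 2.81, above the loop threshold of 2. These counts by domain are therefore a description only. A protein-coding gene lay at both anchors of 13, at one anchor of 17 and at neither of 6, counting genes within 1 bin of the anchor, while 35.5% of all bins lay that close to such a gene. An anchor lay within 5 bins of a border in 18, while 17.7% of all bins lay so close. Each loop has 2 anchors, so these shares of single bins are a scale and not a count that the loops could be tested against. Their median span was 665 kb.

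Stripes, lines of high contact that run from one bin to many partners on one side, were weak. A bin counted where its contact over 50 to 500 kb in one direction stood at 5 to 4 or more to that of the bins beside it, and 11 of 873 bins and directions passed, 1.26%, which joined into 8 stripes. The strongest ran from 29390001, 11.6 kb past Lmbr1, towards higher coordinates, with a contact of 1.69 against 1.23 beside it, a ratio of 1.38 (1.31 to 1.46). This bin neighbours the anchor of the loop to 29685001. The next ran towards lower coordinates from 28100001 and 28090001, at the border in Gm35223, with ratios of 1.33 from 1792 contacts and 1.31 from 1580 contacts. Further stripes towards lower coordinates ran from 29045001, 147.7 kb from Rnf32, with 1.30 (1.17 to 1.44), from Shh with 1.29 (1.12 to 1.47), and from 29295001 in Lmbr1 with 1.27 (1.14 to 1.41). The Shh stripe ran out of the Shh domain, with a contact of 0.971 against 0.755 beside it.

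The first eigenvector of the correlation of contacts in 25 kb bins, which sorts bins by whom they meet, followed the Shh domain. It held 33.4% of the variance and had 1 sign in 37 of 37 bins of the Shh domain and in 14 of 74 bins outside it. Of the 21 genes 4 lay on that side, which were Shh, Rnf32, Lmbr1 and Speer4b at the end of the region. En2 and Mnx1 were on the other side.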

How the data were processed

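Tissue was fixed and cut with DpnII, and the captured religated DNA was sequenced in pairs, per the labels' protocols for the listed samples. Bowtie2 2.2.6 and 2 builds, mm9 and mm10, appear without a role in the submitters' processing notes, and the map's coordinates were read as mm10. The file name gives a mapping quality of 30 and Knight-Ruiz balancing, which equalises the totals of the bins. The deposited value, made by the authors, is a balanced contact signal per pair of 5 kb bins. The map is 1 column of values that belongs to no sample. How duplicates were handled is not given in these sources.

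From the deposited signal, whole contacts and 1 factor per bin were recovered, 100% of values being whole within 0.01. The 36 undefined values were left out, and unlisted pairs of usable bins counted as 0. A bin with fewer than 25% as many partners as the median bin was dropped. Values were divided by the mean at their distance, and 95% intervals come from a weighted Poisson error. Loop rings spanned 15 by 15 bins less the inner 7 by 7, and loop calls within 5 bins were joined. Stripes were set against bins 3 to 8 away on either side. Gene windows had all bin pairs 50 kb or more apart. Scripts were tested on simulated maps (Python 3.11.15, numpy 2.4.6, scipy 1.17.1). The members, gene lists and thresholds were chosen with earlier results of these data known. Named with values were the 8 highest and 4 lowest of the pairs among 13 genes, the developmental pairs, all borders, the 10 loops of highest ratio and 6 stripes. Other pairs, and the loops named for meeting both added conditions, were chosen after their values were seen.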

Additional observations from a re-analysis of the deposited data

How the results depend on the processing

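No paired analysis was possible because the map is 1 library. Leaving out a replicate was not possible for the same reason. With unlisted pairs left out, the slope between 100 and 500 kb was -0.77, contact inside the Shh domain 1.36 and the median of the developmental pairs 4.22. With unbalanced contacts the slope was -0.79, contact inside the Shh domain 1.57, sub-borders 8, loops 209, stripes 140 and gene pairs at 2 or more 23. Squares of 200 kb gave 3 borders. A prominence of 0.05 gave 9 sub-borders and 0.2 gave 1. Loops numbered 8 with a minimum contact of 3 in the centre and a minimum ratio of 2. They numbered 36 with the lower bound at 2 and 10 with that bound and a ratio of 2. Those last 2 settings were added after the data were seen. Stripes numbered 0 at a ratio of 1.5 and 3 over a range to 1000 kb. Windows at transcription starts gave 20 gene pairs at 2 or more, and bins of 10 kb gave a developmental median of 3.75. The cause was not tested. No direction reversed in these alternatives. A further 27 settings of these results moved by less than set limits, which were wide for counts. Among them, loops numbered 71 with unlisted pairs left out, against 102. Borders numbered 6 at a prominence of 0.4, against 9, and gene pairs at 2 or more 9 in bins of 10 kb, against 13. The contact of En2-Shh, 1.80 in the main setting, was 1.33 in bins of 10 kb and 2.26 with unbalanced contacts. En2-Mnx1 ranked first of all gene pairs in each of the 6 alternatives, with contacts from 6.88 to 13.3, while Shh-Mnx1 ranked 2 or 3 and En2-Shh 17 to 39. As loops by ratio to the ring, En2-Mnx1 ranked 4, Shh-Mnx1 5 and En2-Shh 8 with unbalanced contacts. Depth limits single bin pairs, since 43.2% of pairs 2000 kb apart had 0 contacts.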
